A study of Mus musculus with 48 samples.

Results

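Cholesterol synthesis was followed in mouse cortex after permanent middle cerebral artery occlusion (MCAO) through 8 genes chosen by symbol: Hmgcs1, Idi1, Fdps, Sqle, Lss, Cyp51 and Dhcr7, which encode enzymes of the pathway, and Insig1, which encodes a sterol-regulated inhibitor of it. They are 8 of the 46983 genes listed in the count tables, and all 8 were among the 19970 genes that passed the filter on low counts. Bulk 3′ RNA sequencing (QuantSeq, which reads the 3′ end of each transcript) was made from 48 libraries in 11 groups. Male C57Black/6 mice of 3 months of age had the artery coagulated and cut in the MCAO groups, the same surgery without coagulation in the sham groups, or no surgery in the control group, which was intact cortex. MCAO and sham tissue was taken at 3 h, 12 h, 24 h, day 3 and day 7, with 4 libraries in each sham group and in the control, 4 in MCAO at 24 h and 5 in each other MCAO group. The tissue was the injured cortical region together with unaffected tissue around it, so a level is a mean over lesioned and spared cells, and fewer cells of a type cannot be told apart from less RNA per cell. The study's text counts its bulk replicates as mice, but the labels tie no library to a mouse, and p-values measure the spread between these libraries.

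Cells build cholesterol from acetyl-CoA through the mevalonate pathway. Hmgcs1 makes HMG-CoA at the head of the pathway, Idi1 and Fdps build the isoprenoid farnesyl pyrophosphate, Fdft1 and Sqle turn it into squalene epoxide, Lss closes the ring to lanosterol, and Cyp51, Msmo1, Dhcr7 and others finish the sterol. The brain makes nearly all of its own cholesterol because blood lipoproteins do not cross the blood-brain barrier, and oligodendrocytes and astrocytes are known as major producers. When sterol in the endoplasmic reticulum is low, the transcription factor SREBP-2, escorted by Scap, is cut by proteases in the Golgi and switches the pathway on. Insig1 holds the SREBP and Scap complex back and is itself a target of SREBP, while oxysterols act through the LXR receptors on export genes such as Abca1 and Apoe.

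SREBP acts at promoters, so the region from 250 bases before to 50 bases after the start of each gene was taken from RefSeq (build GRCm38.p6). It was held for 6 of the 8 genes, all but Sqle and Fdps. The letters TCACNCCAC, a core of the sterol regulatory element, were searched on both strands and were found in 408 of 32851 promoters (1.24%), and among the 6 genes in Hmgcs1 alone, where the match began 137 bases before the start. CCAAT, the box bound by NF-Y, which acts beside SREBP, was in 37.4% of all promoters and in each of the 6 genes, and GGGCGG, the box bound by Sp1, was in 35.7% and in each of the 6 genes. Of 11 other pathway enzymes with a promoter, 0 held the first motif and 10 held each of the others. A gene was counted if any of its promoters held the letters, while the shares are of single promoters. Dhcr7 had 3 promoters, with CCAAT in the last alone and no GGGCGG in the middle one. Hmgcs1 holds the sterol element core. Cyp51, an enzyme, had estimates against sham close to those of Hmgcs1 at 3 h and 12 h, and the values of Insig1 took another course. The promoters of these 3 genes are shown. Each is 5′ to 3′ on the strand of the gene, and capitals mark the sterol element core and the CCAAT box on either strand, the second read as ATTGG where it lies on the other strand.
Hmgcs1 (chr13:119690101-119690400, plus strand): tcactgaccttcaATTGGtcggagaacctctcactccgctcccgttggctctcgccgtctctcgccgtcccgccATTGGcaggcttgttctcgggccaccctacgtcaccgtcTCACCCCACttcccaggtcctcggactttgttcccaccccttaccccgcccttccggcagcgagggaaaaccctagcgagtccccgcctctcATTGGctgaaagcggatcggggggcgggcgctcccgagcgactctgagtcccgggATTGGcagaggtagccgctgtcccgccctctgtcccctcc
Cyp51 (chr5:4104648-4104947, minus strand): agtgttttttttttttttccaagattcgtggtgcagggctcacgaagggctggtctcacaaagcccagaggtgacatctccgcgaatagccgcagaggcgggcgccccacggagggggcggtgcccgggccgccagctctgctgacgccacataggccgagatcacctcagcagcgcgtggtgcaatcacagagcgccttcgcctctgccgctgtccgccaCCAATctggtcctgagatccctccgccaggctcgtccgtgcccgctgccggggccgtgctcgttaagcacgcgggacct
Insig1 (chr5:28071162-28071461, plus strand): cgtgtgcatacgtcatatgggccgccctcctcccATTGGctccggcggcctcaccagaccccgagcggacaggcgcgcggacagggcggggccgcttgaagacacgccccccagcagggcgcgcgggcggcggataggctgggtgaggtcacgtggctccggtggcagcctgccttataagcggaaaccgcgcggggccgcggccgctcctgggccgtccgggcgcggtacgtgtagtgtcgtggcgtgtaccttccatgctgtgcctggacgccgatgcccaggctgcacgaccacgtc
A match is a description of letters in this window, and a gene without one may still be bound elsewhere.

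The genes lie at chr13:119690379-119708260 (Hmgcs1, ENSMUSG00000093930.1), chr13:8885501-8892451 (Idi1), chr3:89093588-89101959 (Fdps), chr15:59315077-59331192 (Sqle), chr10:76531588-76557138 (Lss), chr5:4081145-4104746 (Cyp51), chr7:143823145-143848410 (Dhcr7) and chr5:28071363-28078662 (Insig1) in GRCm38. Their depth was very unequal. Hmgcs1 had a median of 797.5 counts per library, Cyp51 141.5, Sqle 87.5, Dhcr7 42.0, Lss 29.5, Insig1 22.5, Fdps 19 and Idi1 2.0. Idi1 had 135 counts over all 48 libraries and 0 counts in 7 of them, and its values can show only very large differences. Fdps shares 334 of the 451 windows of 50 bases in its last 500 bases with other genes, among them processed pseudogenes such as Gm3571 (224 windows) and the overlapping gene Gm43738 (212 windows). Reads that map to several places were not counted, and the level of Fdps is uncertain. For the other 7 genes the number of such shared windows was 0. Cyp51 overlaps exons of Akap9 on the opposite strand, and whether the counting used strand is not given in the sources used here.

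Each library held 1522668 to 2826735 counts on genes. Neuron markers, which the label of cortex calls for, summed to 6107 to 13305 CPM (read counts scaled to a common library total, normalised by TMM) over the libraries, and markers of striatum to 93.4 to 2612 CPM, so that none was without them. Marker sums were uneven within the groups, and 5 MCAO libraries far from the rest of their group in 1 or more lists are named here. Library E of 12 h had blood myeloid markers at 1672 CPM beside 12.6 to 178 CPM in the other 4, and the largest share of reads without a gene of all 48 libraries (30.6%). Library D of 24 h had oligodendrocyte markers at 4978 CPM beside 1184 to 2415 CPM and the largest striatum sum of all 48 libraries (2612 CPM, beside 219 to 1100 CPM in its group). Library A of day 3 had the smallest sum of the 5 microglia markers (367 CPM, beside 767 to 1598 CPM in the other 4) and neuron markers in the range of sham, while library C of day 3 had blood myeloid markers at 632 CPM beside 5.87 to 103 CPM. Library C of day 7 had the largest microglia sum of its group (2112 CPM, beside 519 to 703 CPM), with fibroblast markers at 2518 CPM beside 92.9 to 252 CPM and the smallest neuron sum of all 48 libraries (6107 CPM). The main results of these times were also computed without them, a choice made after the values were seen.

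At 3 h, 12 h and 24 h most of the 8 genes had MCAO estimates above sham, and at day 3 most of the sterol enzymes had estimates below it, but 0 of 8 passed the test at any of the 5 times. The test was the edgeR quasi-likelihood test over all 19970 genes, and calls needed both an adjusted p (Benjamini-Hochberg) below 0.01 and a log2 fold change beyond 0.58 in either direction. The share of all genes called was 0.11% at 3 h, 0.411% at 12 h, 0.0901% at 24 h, 4.02% at day 3 and 3.5% at day 7. By DESeq2 the counts for the 8 genes were 0, 3, 0, 0 and 0, beside 0.36%, 1.14%, 0.295%, 6.27% and 7.15% of the genes to which it gave an adjusted p. At an unadjusted p under 0.05, 2 of 8 were above sham at 3 h, 3 at 12 h and 5 at 24 h, 2 were below sham at day 3, and 0 of 8 at day 7. The share of all genes at that level, in either direction, was 8.45%, 14.6%, 8.8%, 21.6% and 23.5%.

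**Figure D1:**
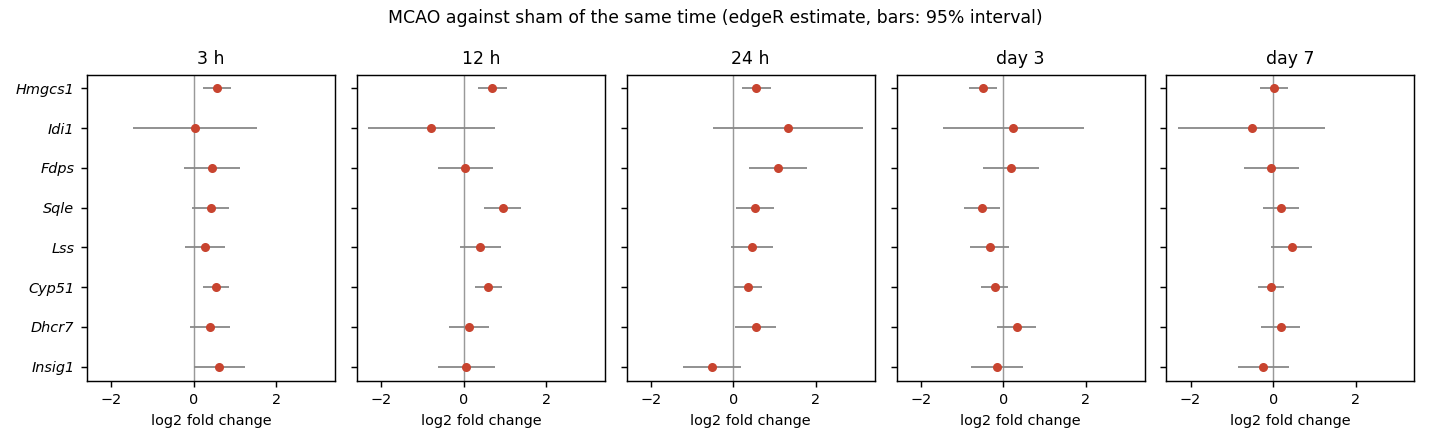
log2 fold change of MCAO against sham of the same time (horizontal axis) for each of the 8 genes, 1 panel per time, with points for the edgeR estimate and bars for its 95% interval. The points of Hmgcs1, Sqle and Cyp51 lie right of 0 at 3 h, 12 h and 24 h and left of it at day 3, and the bars of Idi1 are the widest.

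Hmgcs1, the HMG-CoA synthase that opens the pathway, was the gene best measured. In the control its levels were 358, 424, 457 and 356 CPM. At 3 h they were 294, 350, 372 and 381 CPM in sham and 594, 497, 541, 443 and 488 CPM after MCAO. Every MCAO library was above every sham library at 3 h, as in 2.26% of all genes. At 12 h the sham libraries read 289, 274, 319 and 293 CPM and the MCAO libraries 499, 399, 437, 409 and 639 CPM, again with no overlap, as in 2.03% of all genes. The log2 fold change was 0.55 ± 0.17 (SE) at 3 h (edgeR adjusted p = 0.217) and 0.70 ± 0.17 at 12 h (edgeR adjusted p = 0.0292). By DESeq2 the 12 h value was 0.71 with an adjusted p of 0.00503, which is past the threshold. MCAO library E was the highest of its group at 12 h in Hmgcs1 (639 CPM), and without it the 12 h value was 0.57 ± 0.18 (edgeR adjusted p = 0.122).

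The later times of Hmgcs1 took a different course. At 24 h the sham libraries read 513, 372, 333 and 350 CPM and the MCAO libraries 665.7, 633, 471 and 537 CPM, and the highest sham library overlapped the MCAO range. At day 3 the order was turned, with 451, 428, 386 and 386 CPM in sham and 419, 351, 220, 232 and 249 CPM after MCAO, where libraries B to E lay under every sham library and library A among them. At day 3 the groups overlapped in each of the 8 genes, beside 2.81% of all genes with every MCAO library below every sham library. At day 7 the sham libraries lay between 369 and 414 CPM and the MCAO libraries between 234 and 554 CPM, a spread that enclosed the sham range. The log2 fold changes were 0.56 ± 0.18, -0.49 ± 0.17 and 0.02 ± 0.17, with edgeR adjusted p of 0.249, 0.0669 and 0.978.

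**Figure D2:**
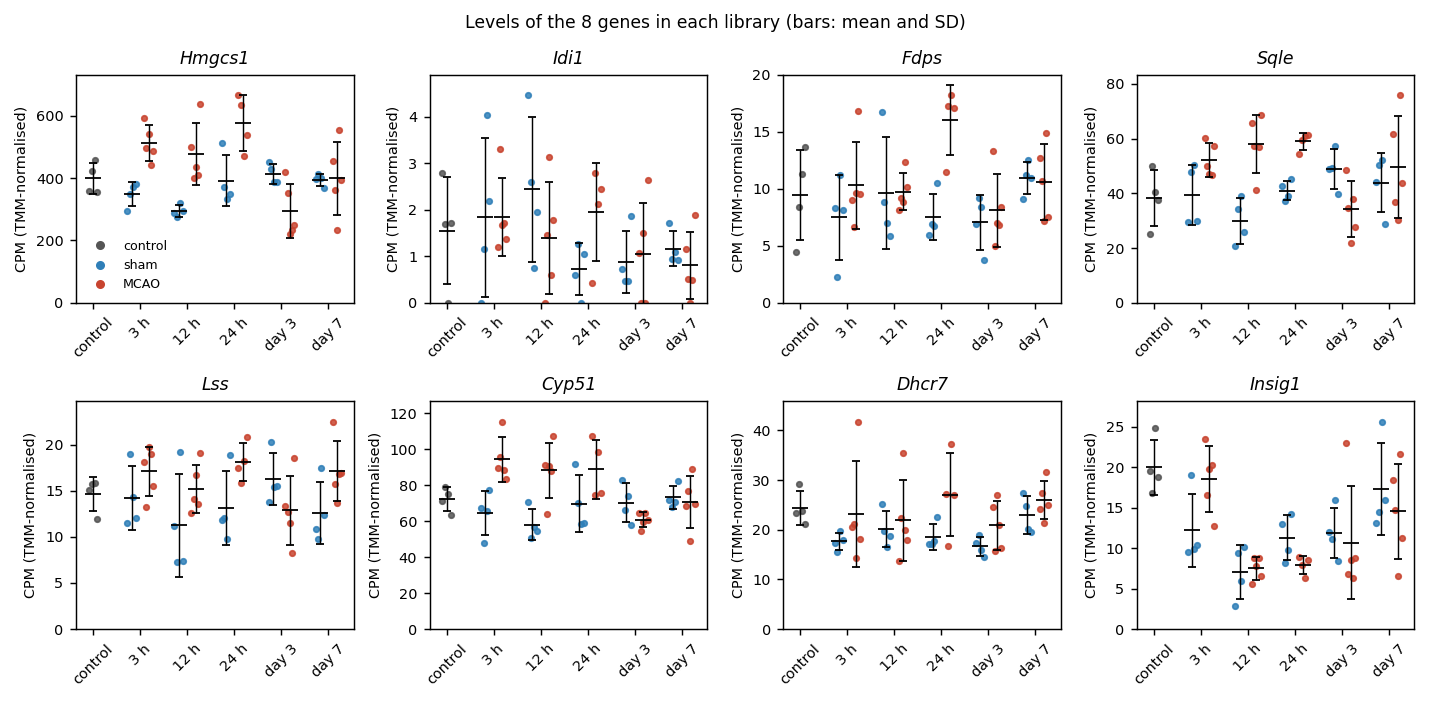
Level of each gene (vertical axis, CPM after TMM normalisation, from 0) in every library by group, with points for libraries, bars for the mean and SD, control in grey, sham in blue and MCAO in red. Hmgcs1 after MCAO has its highest mean at 24 h (577 CPM) and a mean of 294 CPM at day 3, and Insig1 has its highest mean in the control (19.997 CPM).

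Sqle, the squalene epoxidase, had the lowest adjusted p of the 8 genes against sham. At 12 h its sham libraries read 20.7, 34.4, 39.1 and 25.7 CPM and its MCAO libraries 65.6, 57.3, 41.2, 57.1 and 68.5 CPM. The groups did not overlap, as in 2.03% of all genes, though library C after MCAO and library C in sham lay close together. The log2 fold change was 0.94 ± 0.23 (SE), with an edgeR adjusted p of 0.0226 and a DESeq2 adjusted p of 0.00301. At 24 h the MCAO libraries were within 54.4 to 61.1 CPM, above the 37.3 to 45.1 CPM of sham, and not overlapping, as in 3.76% of all genes, with a log2 fold change of 0.52 ± 0.24 (edgeR adjusted p = 0.509). At 3 h and day 3 the groups overlapped, with log2 fold changes of 0.41 ± 0.22 and -0.52 ± 0.22.

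Cyp51, the lanosterol demethylase, had estimates close to those of Hmgcs1 at 3 h and 12 h. At 3 h its sham libraries read 67.2, 47.8, 65.9 and 77.4 CPM and its MCAO libraries 89.8, 95.4, 115, 88.3 and 83.4 CPM, without overlap, as in 2.26% of all genes. At 12 h they read 70.9, 50.6, 56.5 and 54.5 CPM in sham and 91.2, 64.1, 90.8, 87.6 and 107 CPM after MCAO, where MCAO library B fell within the sham range. The log2 fold changes were 0.55 ± 0.16 and 0.60 ± 0.16 (edgeR adjusted p = 0.160 and 0.0449), and 0.35 ± 0.17 at 24 h (edgeR adjusted p = 0.549). At day 3 its MCAO mean was 60.8 ± 4.10 CPM (SD, n = 5) beside 70.4 ± 10.6 CPM in sham (SD, n = 4), which overlapped.

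Lss, Dhcr7 and Fdps, which close the sterol ring, reduce 7-dehydrocholesterol to cholesterol and make farnesyl pyrophosphate, were measured with fewer counts, and none was called. Lss had log2 estimates of 0.28, 0.40, 0.45, -0.33 and 0.44 from 3 h to day 7, with SEs of 0.24 to 0.26. Dhcr7 had 0.39, 0.13, 0.54, 0.32 and 0.18, all above 0, and at day 3 it was 1 of 3 genes, with Idi1 and Fdps, whose estimate lay above 0. Its 3 h mean rested on library D at 41.8 CPM beside 14.3 to 21.3 CPM in the other MCAO libraries, and the log2 estimate at 3 h without that library was 0.07.

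Fdps at 24 h had the largest log2 estimate of the genes with more than a few counts. Its sham libraries read 5.92, 6.95, 6.71 and 10.5 CPM and its MCAO libraries 11.5, 17.3, 18.2 and 17.1 CPM. These did not overlap, as in 3.76% of all genes, and rested on 10 to 20 counts per library in sham and 27 to 43 after MCAO. The log2 fold change was 1.07 ± 0.36 (edgeR adjusted p = 0.263), and the values at 3 h, 12 h, day 3 and day 7 were 0.44, 0.04, 0.19 and -0.04. Idi1 read 0.00 to 4.47 CPM over all libraries, its log2 estimates lay between -0.78 and 1.32 with SEs of 0.76 to 0.93, and no direction can be read from it.

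Insig1 is the one regulator among the 8 genes, and its highest mean was in the control, where it read 19.5, 16.9, 24.8 and 18.8 CPM. At 12 h both surgical groups were lower, with 2.79, 9.39, 5.91 and 10.1 CPM in sham and 5.56, 8.74, 7.82, 8.82 and 6.55 CPM after MCAO. Against the control Insig1 fell after MCAO at 12 h by 1.42 ± 0.33 (SE) on the log2 scale (edgeR adjusted p = 0.00908), the only edgeR call among the 8 genes in the 19 contrasts. Sham against the same control gave -1.48 ± 0.35 (edgeR adjusted p = 0.138, DESeq2 adjusted p = 0.01325), which neither called. MCAO against sham at 12 h gave 0.06 ± 0.35, with a 95% interval of -0.63 to 0.75. The control is shared by both comparisons. The call was lost in each of the 9 fits that left out 1 library of MCAO at 12 h or control (log2 values from -1.49 to -1.30, edgeR adjusted p from 0.0121 to 0.0528). It was also lost with the replicate letter as a block (log2 -1.34, edgeR adjusted p = 0.0209) and with only the compared groups in the fit (log2 -1.41, edgeR adjusted p = 0.0119). DESeq2 called it (log2 -1.41, DESeq2 adjusted p = 0.00111).

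At 24 h Insig1 read 8.92, 7.95, 6.35 and 8.56 CPM after MCAO and 13.0, 8.22, 9.76 and 14.2 CPM in sham. The control lay above both, with log2 estimates of -1.33 ± 0.34 for MCAO (edgeR adjusted p = 0.0502) and -0.81 ± 0.34 for sham (edgeR adjusted p = 1.0). DESeq2 called the MCAO value, as it did 0.871% of the genes it gave an adjusted p. At day 3 MCAO libraries B to E read 6.78, 8.49, 6.35 and 8.81 CPM while library A read 23.0 CPM, and without library A the log2 value against the control was -1.39 (edgeR adjusted p = 0.00154), against -0.92 with it (edgeR adjusted p = 0.0687). Sham was also below the control at 3 h (log2 -0.73 ± 0.33) and day 3 (log2 -0.75 ± 0.33), which neither edgeR nor DESeq2 called. Against the control, MCAO at 3 h gave -0.11 ± 0.30 and sham at day 7 gave -0.21 ± 0.32. At day 7 the sham mean was 17.3 ± 5.66 CPM (SD, n = 4) and the MCAO mean 14.5 ± 5.91 CPM (SD, n = 5), beside 19.997 ± 3.402 CPM in the control (SD, n = 4). In the order of group means, control came first and sham at 12 h last, a span of 2.84-fold. Of the 10 neighbouring pairs of groups in this order, 0 had ranges that did not overlap. Neighbours are the groups closest in mean, so this count cannot show whether groups further apart overlap. Every MCAO library of 12 h was below every control library. The count was not made for all genes.

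For each of the other 7 genes too, 0 of 10 neighbouring pairs were apart, a count that again leaves out groups further apart in the order. The span from the highest to the lowest group mean was 1.963-fold for Hmgcs1 and 1.97-fold for Sqle, both with MCAO at 24 h first and sham at 12 h last. It was 1.62-fold for Cyp51, with MCAO at 3 h first, and 1.60-fold for Lss. It was 1.62-fold for Dhcr7, 2.27-fold for Fdps and 3.36-fold for Idi1.

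Sham surgery against the control put 0 of the 8 genes past the test by edgeR, and 1, 2, 1, 2 and 0 of them were below the control at an unadjusted p under 0.05 from 3 h to day 7. None was above it at that level, which 3.68%, 5.44%, 4.32%, 3.66% and 8.04% of all genes reached in either direction. The share of all genes called in that comparison was 0.0% at 3 h, 0.0351% at 12 h, 0.01% at 24 h and 0.0% at day 3 and day 7. DESeq2 also called 0 of the 8, but it gave no adjusted p to Idi1 at 12 h or to 5 of the 8 at 24 h, and it called 0.0%, 0.0872%, 0.195%, 0.00501% and 0.0% of the genes to which it gave one. At 12 h, 7 of 8 genes had sham estimates below the control, with a median of -0.33 on the log2 scale. For Hmgcs1 the log2 fold change of sham against the control was -0.44 ± 0.18 (edgeR adjusted p = 0.908). MCAO at 12 h against the control gave 0.26 ± 0.17 for Hmgcs1 (edgeR adjusted p = 0.482), less than the 0.70 against sham. Sqle at 12 h gave 0.60 ± 0.23 against the control (edgeR adjusted p = 0.166). MCAO against the control called 0 of 8 genes at 3 h, 1 at 12 h and 0 at the later times, where 0.13%, 0.851%, 0.275%, 3.09% and 1.5% of all genes were called. At an unadjusted p under 0.05, 2 of the 8 were higher at 3 h, 1 was higher and 1 lower at 12 h, 3 were higher and 1 lower at 24 h, 2 were lower at day 3, and 0 of 8 reached that level at day 7. The share of all genes there, in either direction, was 9.14%, 16.0%, 11%, 19.8% and 14.9%.

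The turn between 24 h and day 3 was tested as a difference of the MCAO over sham effects. The effect of Hmgcs1 was lower at day 3 than at 24 h by 1.05 ± 0.25 on the log2 scale (estimate -1.05, edgeR adjusted p = 0.140), and that of Sqle by about as much (estimate -1.04 ± 0.33, edgeR adjusted p = 0.345). Cyp51 gave -0.56 ± 0.23 and Lss -0.78 ± 0.36, and these 4 genes had an unadjusted p under 0.05. By edgeR 0 of the 8 genes were called in any of the 4 steps between times, where 0.01%, 0.01%, 0.01% and 0.0% of all genes were called. At an unadjusted p under 0.05, 0 of the 8 differed from 3 h to 12 h, 1 was higher from 12 h to 24 h, 4 were lower from 24 h to day 3 and 3 were higher from day 3 to day 7, beside 7.12%, 5.08%, 8.84% and 16.2% of all genes in either direction. From day 3 to day 7 Hmgcs1, Sqle and Lss had estimates of 0.51, 0.70 and 0.77, each with an unadjusted p under 0.05 and an edgeR adjusted p of 0.293, 0.262 and 0.263.

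The other 14 enzymes of the pathway were taken from a list made with earlier results of these data known. At 24 h each of the 14 had estimates above sham, with a median of 0.32 on the log2 scale, and over the 8 genes and these 14 the estimates above 0 were 20 of 22 at 3 h, 20 at 12 h, 21 at 24 h, 8 at day 3 and 10 at day 7. Over all genes tested the share above 0 was 49.55%, 51.2%, 51.6%, 50.8% and 53.3%. The medians of the 22 genes were 0.42, 0.33, 0.44, -0.18 and -0.04, beside medians over all genes of 0.00, 0.01, 0.02, 0.01 and 0.06. When libraries were scaled to the ERCC spike-ins, the median of all genes moved to -0.10, -0.09, 0.14, -0.22 and 0.14, and the number of the 8 genes above 0 was 7, 5, 7, 2 and 6 in place of 8, 7, 7, 3 and 4.

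Fdft1, the squalene synthase, was the only one of the 14 called by edgeR, at day 3, when 4.02% of all genes were called. It fell by 0.77 ± 0.20 on the log2 scale at day 3 (edgeR adjusted p = 0.00994), with 45.3, 36.0, 34.1 and 65.6 CPM in sham and 36.8, 32.1, 17.0, 25.4 and 21.6 CPM after MCAO. MCAO library A overlapped sham. The call was lost in 5 of the 9 fits without 1 library, those without MCAO library C, D or E or sham library A or D, and without sham library D the log2 value was -0.54 (edgeR adjusted p = 0.126). It was also lost with DESeq2 size factors (log2 -0.75, edgeR adjusted p = 0.0121), with the replicate letter as a block (-0.75, edgeR adjusted p = 0.0168) and with only the compared groups in the fit (-0.78, edgeR adjusted p = 0.0748). Mvd and Msmo1 at 3 h gave 1.09 ± 0.26 and 0.68 ± 0.15 (edgeR adjusted p = 0.0359 and 0.0239), and were not called either. Mvd, Srebf2 and Insig2 are outside the rule for named genes and were chosen after their values were seen.

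Of the genes that control SREBP (Srebf1, Srebf2, Scap, Insig2, Mbtps1 and Mbtps2), 1 of 6 was called, at day 7, when 3.5% of all genes were. Srebf1, which encodes SREBP-1 and is itself an LXR target, rose at day 7 by 1.99 ± 0.49 on the log2 scale (edgeR adjusted p = 0.00677), from 6.86, 2.80, 9.81 and 2.74 CPM in sham to 32.3, 19.3, 24.4, 19.7 and 13.2 CPM after MCAO, with no overlap, as in 5.38% of all genes. The call was lost without MCAO library A or C or sham library A, B or D, with log2 values from 1.74 to 2.11, and under ERCC scaling (log2 2.02, edgeR adjusted p = 0.0125). Srebf2, which encodes SREBP-2, had estimates between 0.01 and 0.33. Insig2, the second Insig protein, gave -0.62, -0.82 and -0.71 at 3 h, 12 h and day 3, with edgeR adjusted p of 0.5795, 0.175 and 0.153.

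Of the 5 uptake and transport genes, Npc2 rose at day 3 by 1.62 ± 0.25 (edgeR adjusted p = 1.135e-05). Npc1 and Npc2, which carry cholesterol out of the lysosome, rose at day 7 by 0.96 ± 0.20 and 1.21 ± 0.25 (edgeR adjusted p = 0.00148 and 0.00107). The share of all genes called, in either direction, was 4.02% at day 3 and 3.5% at day 7.

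Genes of sterol export and storage were called at day 3 and day 7. Of 12 genes of efflux and conversion, 1 was called at day 3 and 3 at day 7, all above sham. The share of all genes called, in either direction, was 4.02% and 3.5%. Abca1, the exporter that loads cholesterol onto apolipoproteins, rose at day 3 by 1.61 ± 0.31 on the log2 scale (edgeR adjusted p = 0.000365) and at day 7 by 2.58 ± 0.33 (edgeR adjusted p = 2.27e-06). At day 7 it read 25.7, 14, 17.99 and 10.9 CPM in sham and 78.5, 84.5, 177, 84.0 and 85.2 CPM after MCAO. Apoe, the main apolipoprotein of the brain, rose at day 7 by 1.26 ± 0.25 (edgeR adjusted p = 0.0007555), with 14648 CPM in MCAO library C beside 3368 to 4558 CPM in the other 4 and 2247 to 2940 CPM in sham, and Soat1, which esterifies cholesterol for storage, by 1.21 ± 0.28 (edgeR adjusted p = 0.00373). With only the compared groups in the fit, Abca1 at day 3 and Npc1, Npc2, Apoe and Soat1 at day 7 lost their calls (edgeR adjusted p from 0.01046 to 0.0482) at nearly the same log2 values (1.59, 0.96, 1.21, 1.26 and 1.21). Calls were also lost by Npc1 without sham library D and Soat1 without sham library A, B or D. By edgeR 0 of 9 genes of fatty acid synthesis were called at any time, with medians between -0.28 and 0.04. The number of those 9 at an unadjusted p under 0.05 was 0, 0, 1, 1 and 2. The share of all genes at that level, in either direction, was 8.45%, 14.6%, 8.8%, 21.6% and 23.5%.

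**Figure D3:**
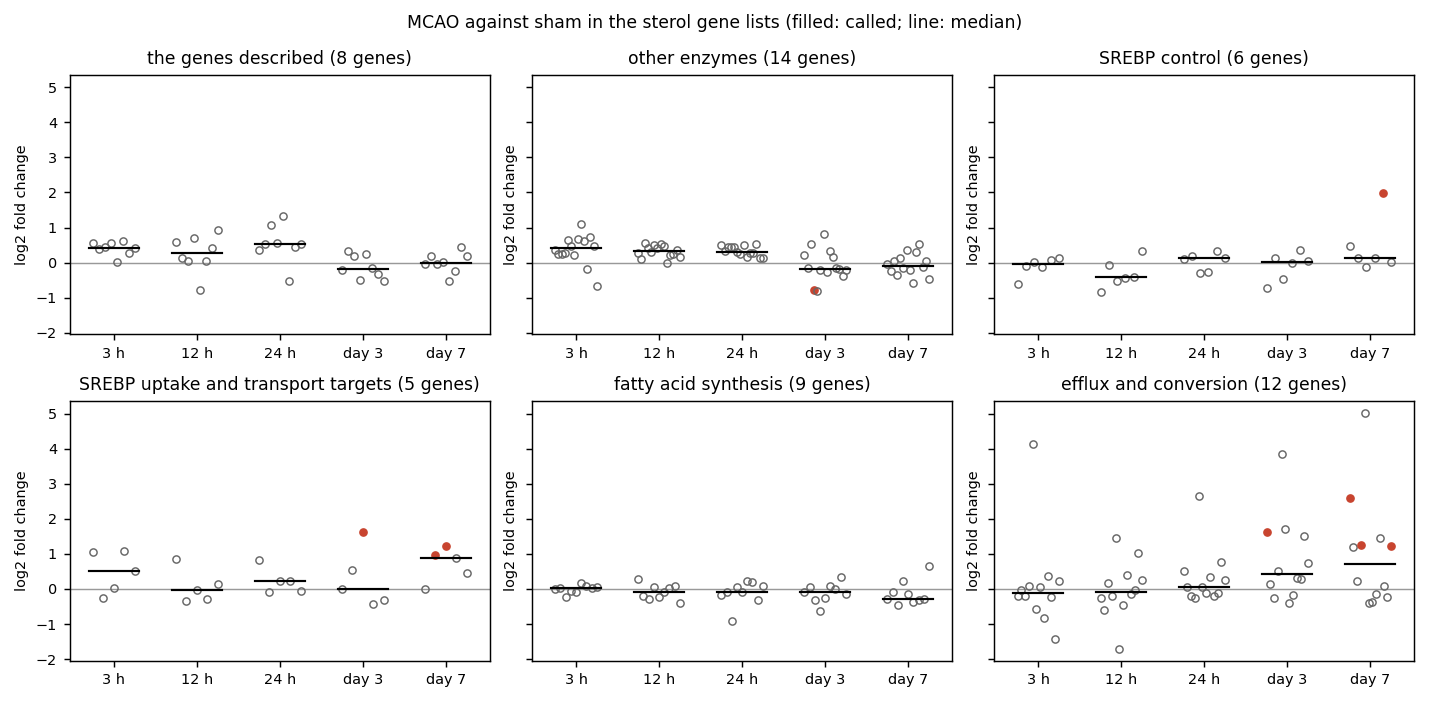
log2 fold change of MCAO against sham of the same time (vertical axis) for each gene of the sterol lists, 1 point per gene, filled red where called by the edgeR test, and a line for the median. The 8 genes and the other 14 enzymes lie mostly above 0 up to 24 h, while the filled points of efflux and of transport stand at day 3 and day 7.

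Microglia markers were higher after MCAO at both late times, while the 8 genes had a median log2 fold change of -0.19 at day 3 and -0.01 at day 7. The 5 microglia markers summed to 176 to 221 CPM in sham and 367 to 1598 CPM after MCAO at day 3, and to 239 to 302 CPM and 519 to 2112 CPM at day 7. Of these 5 markers, 3 were called above sham at day 3 and 2 at day 7, beside 4.02% and 3.5% of all genes in either direction. Within MCAO at day 3, library A had the smallest sum (367 CPM) and the highest Hmgcs1 (419 CPM), and library C the largest sum (1598 CPM) and the lowest Hmgcs1 (220 CPM). Neuron markers were also lower there, at 7611 to 7699 CPM in libraries C, D and E beside 11097 to 12659 CPM in sham. At day 7, library C, which stood apart by its markers, had the lowest value of the MCAO group in each of the 8 genes, with 234 CPM in Hmgcs1, 30.3 CPM in Sqle, 48.8 CPM in Cyp51, 6.54 CPM in Insig1 and 0 counts in Idi1. Over the 48 libraries the mean z-score of the 8 genes had r = -0.28 with the log2 microglia sum and r = -0.55 after the group means were removed, over points that share libraries and depth. For oligodendrocyte precursor markers these values were -0.50 and -0.29, for neuron markers 0.09 and 0.31, and for astrocyte markers -0.18 and 0.32. The part of these cells in the result was not tested.

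**Figure D4:**
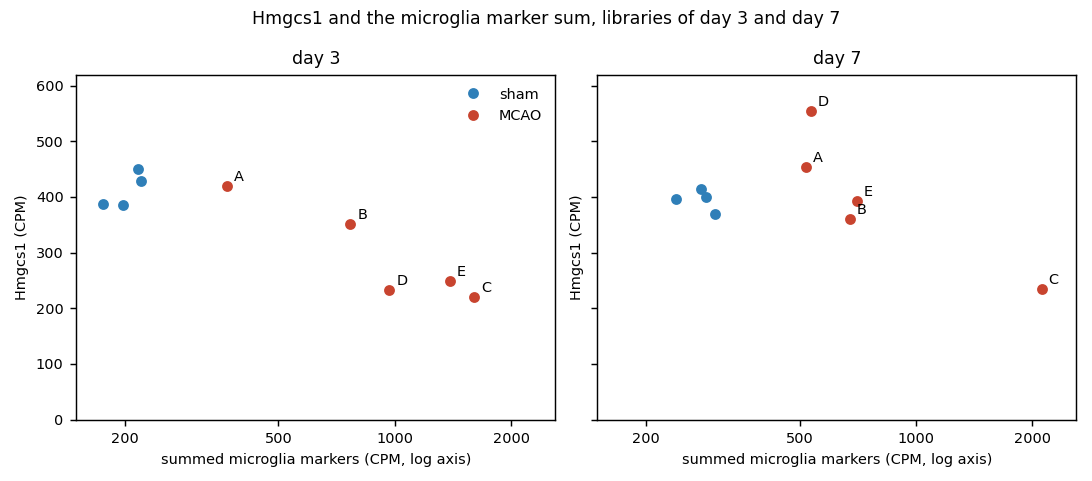
Hmgcs1 (CPM, vertical axis from 0) against the summed microglia markers (CPM, log axis) in each library of day 3 and day 7, sham in blue and MCAO in red with the replicate letter. MCAO library A of day 3 lies near sham and MCAO library C of day 7 far to the right and low.

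Each of the 5 libraries named for its markers was left out in turn. Without MCAO library E of 12 h, which also had the highest Sqle (68.5 CPM) and Cyp51 (107 CPM) of its group, Sqle at 12 h gave 0.88 ± 0.24 on the log2 scale (edgeR adjusted p = 0.06045) and Cyp51 0.52 ± 0.17 (edgeR adjusted p = 0.151). The 8 genes stayed at 0 called and 3 higher at an unadjusted p under 0.05, and 5 of the 22 genes were higher at that level in place of 7. Without MCAO library D of 24 h, the 8 genes had a median of 0.52 in place of 0.53, and 3 of them were above sham at an unadjusted p under 0.05 in place of 5. The share of all genes at that level was not computed for the fits without 1 library. Without MCAO library A of day 3, Hmgcs1 was called below sham at day 3 (log2 -0.65 ± 0.17, edgeR adjusted p = 0.00691), and Sqle was not (log2 -0.67, edgeR adjusted p = 0.0463). In that fit 3 of the 22 genes were called in place of 1. The number called of all genes moved too, with 441 to 1353 at day 3 over the fits without 1 library, beside 802 with all libraries. Fdft1, Npc2 and Abca1 kept their calls at day 3, with log2 values of -0.91, 1.79 and 1.81. Without MCAO library C of day 3, which had the lowest Hmgcs1 and Sqle (22.0 CPM) of its group, Hmgcs1 at day 3 gave -0.40 ± 0.18 (edgeR adjusted p = 0.218) and Sqle -0.39 ± 0.23 (edgeR adjusted p = 0.381). Fdft1 then lost its call (log2 -0.65), while Npc2 (1.48) and Abca1 (1.38) kept theirs at day 3.

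Without MCAO library C of day 7, the 8 genes stayed at 0 called, with a median of 0.11 in place of -0.01. Apoe at day 7 then gave 0.63 on the log2 scale in place of 1.26, Npc2 0.77 in place of 1.21, Npc1 0.69 in place of 0.96, Soat1 0.82 in place of 1.21 and Srebf1 1.95 in place of 1.99. These 5 genes lost their calls (edgeR adjusted p from 0.01845 to 0.05299), while Abca1 kept its own (log2 2.29 in place of 2.58). The part of each library's cells in these values was not tested.

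Markers of other cell types are given beside these values. At 12 h the oligodendrocyte markers, of a cell type that makes much cholesterol, had estimates below sham in 8 of 8 genes with a median of -0.75 on the log2 scale, and their sum was 946 to 2035 CPM after MCAO beside 1694 to 3834 CPM in sham, which overlapped. The 4 striatum markers were also below sham at 12 h, with a median of -1.53 and sums of 303 to 1119 CPM after MCAO against 376 to 1690 CPM in sham, which overlapped too. By edgeR 0 of these 8 oligodendrocyte markers were called, and 5 were lower at an unadjusted p under 0.05, a level that 14.6% of all genes reached in either direction. The 3 oligodendrocyte precursor markers summed to 85.5 to 103 CPM beside 121 to 184 CPM in sham at 12 h. At day 3 they summed to 117 CPM in MCAO library A and 244 to 314 CPM in libraries B to E, beside 146 to 159 CPM in sham, and at day 7 to 161 to 205 CPM beside 90.8 to 128 CPM at day 7. Blood myeloid markers summed to 12.6 to 1672 CPM after MCAO at 12 h, the highest in library E, and to 0.74 to 3.12 CPM in sham, while the neuron markers had a median of -0.18. The part of each in the sterol genes was not tested.

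Among the 8 genes, 26 of 28 pairs had a correlation above 0 across the 48 libraries, with a median r of 0.23 and a highest r of 0.77, over points that share libraries and depth. Removing the group means left a median of 0.13. Among the 10 genes outside the 8 most like their mean level (mean of z-scores of log2 CPM over 48 libraries, of 9874 genes with a mean of at least 10 CPM) were Msmo1 (r = 0.72), Epha10 (0.66), Tiam1 (0.66), Chgb (0.65), Nptx2 (0.62), Fbxo34 (0.59) and Ppp1r1a (0.59). Of the 10 genes, 4 belong to the sterol lists, and 3 of these, with the sterol demethylase Msmo1 among them, are enzymes of the pathway.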

How the data were processed

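RNA of 48 mouse cortex samples was sequenced as QuantSeq 3′ libraries to which ERCC spike-ins had been added. Reads were trimmed by the authors, who removed ribosomal RNA reads, aligned the rest with STAR 2.5.2b to GRCm38 and counted them per Gencode gene with HTSeq, and they deposited raw read counts per gene and library, which were used here. A normalised matrix of the same libraries was not used. Spike-ins took 3.71 to 5.97% and reads without a gene a median of 23.5% of each library, and both were left out of library sizes.

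Counts were fitted with edgeR 4.0.16 (R 4.3.3; TMM, quasi-likelihood F test, 1 fit of 11 groups, genes with more than 10 counts in total), and p-values were adjusted by Benjamini-Hochberg over all 19970 genes. The fit was tested on simulated data. Alternatives were DESeq2 1.42.0, its size factors, other filters, spike-in scaling, the replicate letter as a block, the compared groups alone, and each library left out. Intervals are 1.96 SE wide on each side. The 8 genes and all lists were chosen with earlier results of these data known. Named were the 8 genes, genes of the sterol lists that were called, and genes from the 10 most like the 8. Promoters came from RefSeq, and gene positions from Gencode on GRCm38. Some genes of these lists are not reported here.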

Additional observations from a re-analysis of the deposited data

Results flagged for a closer look

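A test for a single library far from the rest of its group was made for each of the 8 genes in each of the 11 groups. Of these 88 sets of 4 or 5 values, 6 were picked out, beside 4.4 that chance gives at 1 in 20. The sets of different genes share libraries and are not independent. Dhcr7 read 41.8 CPM in MCAO library D at 3 h and 22.5 CPM in sham library D at 24 h, both the highest of their groups. Insig1 read 23.0 CPM in MCAO library A at day 3, the library with the fewest microglia markers of its group, and 18.99 CPM in sham library B at 3 h. Fdps read 11.5 CPM in MCAO library A at 24 h, the lowest of its group. Idi1 read 3.31 CPM in MCAO library B at 3 h, on a handful of counts.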

How the results depend on the processing

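Of 802 alternative values of 51 named fold changes, 34 changed sign, 0 of them for a called value. Under ERCC scaling Idi1 at 3 h gave -0.0723, Fdps at 12 h -0.0348, at day 3 -0.0518 and at day 7 0.0542, Insig1 at 12 h -0.0924, and Cyp51 at day 7 0.0577. With the replicate letter as a block, Idi1 gave -0.12 at 3 h and -0.0849 at day 3, and Hmgcs1 at day 7 gave -0.0021, or -0.0043 with no filter. Leaving out 1 library each, values that changed sign ranged from -0.41 to 0.80 (Idi1, 3 h), -0.12 to 0.26 (Dhcr7, 12 h), -0.14 to 0.42 (Fdps, 12 h), -0.18 to 0.30 (Insig1, 12 h), -0.45 to 0.83 (Idi1, day 3), -0.0567 to 0.34 (Fdps, day 3), -0.63 to 0.0049 (Insig1, day 3), -0.13 to 0.16 (Hmgcs1, day 7), -0.0228 to 0.32 (Sqle, day 7), -0.15 to 0.0555 (Cyp51, day 7), -0.20 to 0.0697 (Fdps, day 7) and -0.43 to 0.0076 (Insig1, day 7). The cause was not tested.

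Of the 8 genes, the number called at 12 h against sham was 1 with no filter and 3 by DESeq2, in place of 0, and at 24 h against the control it was 1 by DESeq2. At 12 h against the control it was 0 with the block, with the compared groups alone and in each fit without 1 library, in place of 1. Leaving out 1 library gave 0 to 1 called at day 3 against sham and against the control. Over all genes, 22, 82, 18, 802 and 698 were called from 3 h to day 7, and the alternatives gave 14 to 58, 13 to 179, 16 to 55, 339 to 1033 and 302 to 1096, or 5 to 20, 21 to 102, 6 to 21, 441 to 1353 and 242 to 672 without 1 library. At day 3 ERCC scaling called 463 genes higher and 131 lower, in place of 750 and 52.

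The labels do not say whether the replicate letters pair the samples. The correlation of same-letter deviations was over 0.1 in 8 of 20 pairs of groups, with a median of 0.0455. Pairs of different letters were not compared, so these values cannot decide whether samples were paired. The depth limits Idi1 most, with a median of 2.0 counts per library.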
